A study of Rattus norvegicus with 6 samples.

Results

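Tubulin isotypes are the products of separate genes for alpha- and beta-tubulin, the proteins that pair as heterodimers and assemble into microtubules. Their levels were examined in polyA RNA of rat cortical neural progenitors. The members were 10 genes taken by symbol from a list: the alpha-tubulin genes *Tuba1a*, *Tuba1b*, *Tuba1c*, *Tuba4a* and *Tuba8* and the beta-tubulin genes *Tubb2a*, *Tubb2b*, *Tubb3*, *Tubb5* and *Tubb6*. All 10 were among the 17337 gene names of the tables. The cells were untreated cortical cultures from embryonic day 14 Sprague Dawley rats, expanded with bFGF and EGF and collected after the second passage, so they represent passaged cultures and not tissue. By the sample labels there were 2 biological replicates, A and B, each with 2 libraries taken as technical (A1 and A2, B1 and B2). A further 2 samples, of short capped RNA (Start-seq), are not analysed here.

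Alpha-tubulin genes differ from each other mainly in where and when they are used. *Tuba1a* is the main alpha isotype of the developing brain, and *Tuba1b* and *Tuba1c* are used in many dividing cells. Among the beta isotypes, *Tubb5* is broadly expressed and abundant in neural progenitors, *Tubb2a* and *Tubb2b* are prominent in the nervous system, *Tubb3* is the classical marker of neurons, and *Tubb6* is found mostly outside the nervous system, for example in muscle and connective tissue. The isotype proteins are alike over most of their length and diverge in the C-terminal tail, which carries glutamate chains and other modifications.

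The genes lie in several parts of the genome. In rn6, the build of the tables, *Tuba1b* (minus strand, 140614742 to 140617721), *Tuba1a* (minus strand, 140637287 to 140640953) and *Tuba1c* (plus strand, 140716113 to 140723716) sit together on chromosome 7, with 19565 bases between *Tuba1b* and *Tuba1a* and 75159 between *Tuba1a* and *Tuba1c*. *Tubb2b* (31441640 to 31444687) and *Tubb2a* (31493145 to 31498651) are neighbours on the plus strand of chromosome 17, with 48457 bases between them. *Tubb5* is on chromosome 20 from 3422448 to 3426420, *Tubb3* on chromosome 19 from 56220759 to 56229813, and *Tubb6* on chromosome 18 from 63130542 to 63140181, all on the plus strand. *Tuba4a* is on the minus strand of chromosome 9 from 82415604 to 82419288, and *Tuba8* spans 153774511 to 153791223 of chromosome 4, plus strand.

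The promoter sequences are shown for the 8 isotypes that made up nearly the whole of the alpha and beta RNA of the list. They are shown because 2 pairs among them, *Tubb2b* with *Tubb2a* and *Tuba1b* with *Tuba1c*, kept nearly fixed ratios in all libraries. The pairs were picked with these levels known, and how often other pairs of genes keep such a ratio was not tested. The ratio of the neighbours *Tuba1a* and *Tuba1b* did not stay as close. Each line is the 120 bases before the RefSeq start of the gene in GRCr8, read 5′ to 3′ on the strand of the gene, with capitals for TATAA and CCAAT on either strand (TTATA and ATTGG being the opposite strand). In this order the stretches are chr7:131995820-131995939 (minus strand), chr7:131972588-131972707 (minus strand), chr7:132070864-132070983 (plus strand), chr20:2917457-2917576 (plus strand), chr17:30952966-30953085 (plus strand), chr17:31002066-31002185 (plus strand), chr19:68365567-68365686 (plus strand) and chr18:63213167-63213286 (plus strand).
Tuba1a: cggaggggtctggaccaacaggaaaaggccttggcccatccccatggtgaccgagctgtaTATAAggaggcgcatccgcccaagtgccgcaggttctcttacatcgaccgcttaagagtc
Tuba1b: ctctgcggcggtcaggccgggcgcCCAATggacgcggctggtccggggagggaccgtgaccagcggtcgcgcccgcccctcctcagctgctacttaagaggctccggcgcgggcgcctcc
Tuba1c: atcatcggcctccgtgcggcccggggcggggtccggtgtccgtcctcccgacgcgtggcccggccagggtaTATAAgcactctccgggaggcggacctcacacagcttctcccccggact
Tubb5: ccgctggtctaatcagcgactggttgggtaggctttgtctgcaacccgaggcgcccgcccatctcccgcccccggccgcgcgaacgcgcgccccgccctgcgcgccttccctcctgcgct
Tubb2b: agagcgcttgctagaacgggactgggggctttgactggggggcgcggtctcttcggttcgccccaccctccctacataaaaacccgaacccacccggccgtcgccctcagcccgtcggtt
Tubb2a: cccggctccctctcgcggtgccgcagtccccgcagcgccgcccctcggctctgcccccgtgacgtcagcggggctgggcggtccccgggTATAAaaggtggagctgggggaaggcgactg
Tubb3: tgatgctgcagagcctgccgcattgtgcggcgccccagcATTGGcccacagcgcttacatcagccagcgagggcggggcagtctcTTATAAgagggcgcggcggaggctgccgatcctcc
Tubb6: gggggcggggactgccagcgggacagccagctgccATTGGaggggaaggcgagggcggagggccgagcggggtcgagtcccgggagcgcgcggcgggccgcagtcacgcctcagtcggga

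Of the 10 isotypes, 5 held TATAA in this window, against 12.78% of 33469 promoter stretches of the same length in the RefSeq table. These were *Tuba1a*, *Tuba1c*, *Tuba4a*, *Tubb2a* and *Tubb3*. The match began 30 bases before the start in *Tuba4a*, 31 in *Tubb2a*, 49 in *Tuba1c* and 60 in *Tuba1a*. The paper moved the starts of many genes from their rn6 RefSeq position, so these distances depend on the RefSeq starts used here. *Tubb2b*, the neighbour of *Tubb2a*, held neither of the capitalised motifs. The CCAAT motif was present in 3 isotypes, *Tuba1b*, *Tubb3* and *Tubb6*, against 19.87% of all stretches. GGGCGG, searched on both strands with CCGCCC as its complement, was present in 8 isotypes against 23.73% of all stretches, and *Tubb5* held 3 copies. The isotype stretches were 58.3% to 77.5% G and C, against a median of 53.3% over all stretches, and the shares were not matched for this. TATAA and its complement can overlap each other, as in *Tubb3*. The motifs were chosen with results of these data known, and a match is a description of letters only.

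Levels are in FPKM, which counts fragments scaled to transcript length and library depth, so that genes can be compared with each other. With technical libraries averaged first and the mean and SD taken over replicates A and B, the leading alpha isotype was *Tuba1a* at 1164 ± 136 FPKM (SD, n = 2), rank 67 of 17337 names, and the leading beta isotype was *Tubb5* at 1061 ± 289 FPKM (SD, n = 2), rank 75. *Tubb2b* (464 ± 68.9) and *Tuba1b* (459 ± 143) came next, followed by *Tubb2a* (162 ± 25.8), *Tuba1c* (144 ± 48.6), *Tubb3* (118 ± 9.88) and *Tubb6* (62.2 ± 40.0), all in FPKM with n = 2. Far below these were *Tuba4a* at 3.17 ± 0.505 FPKM and *Tuba8*, an isotype of few tissues, at 0.275 ± 0.206 FPKM (SD, n = 2). The 10 genes together took 0.542% to 0.776% of all TPM in a library.

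The order within the alpha family was the same in all 4 libraries, and no 2 neighbours overlapped in any library. In the beta family this held for *Tubb5*, *Tubb2b*, *Tubb2a* and *Tubb3*, whereas *Tubb3* was above *Tubb6* in 3 of 4 libraries. Across the families, 4 pairs of neighbours did not differ beyond the spread between replicates: *Tuba1a* and *Tubb5*, *Tubb2b* and *Tuba1b*, *Tubb2a* and *Tuba1c*, and *Tuba1c* and *Tubb3*.

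**Figure D1:**
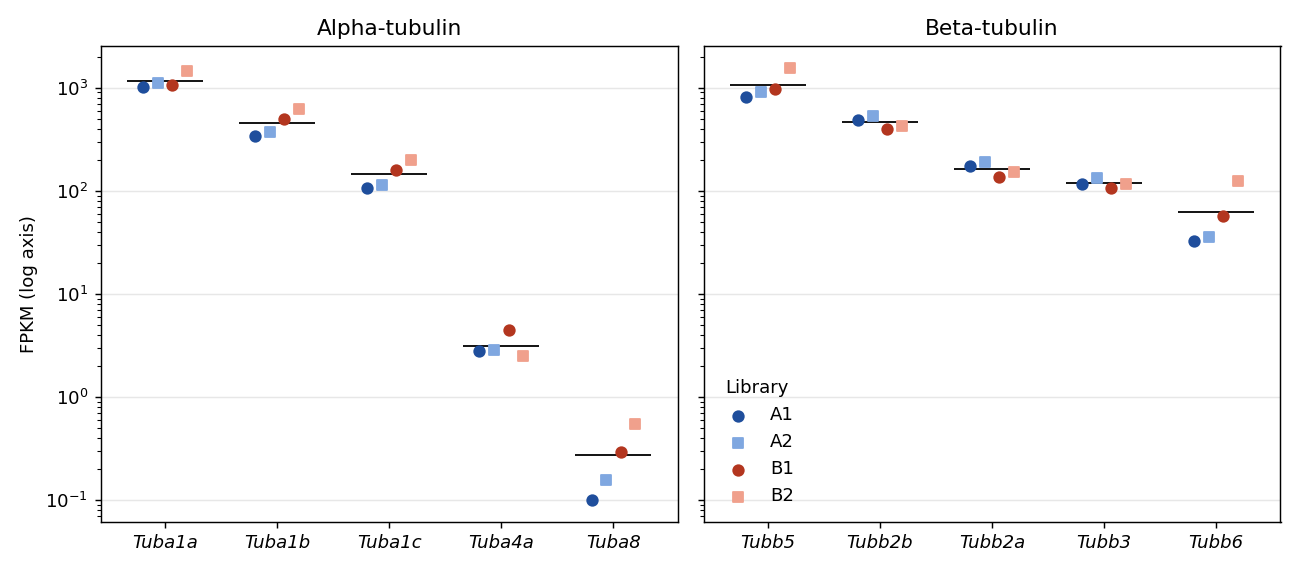
FPKM of the 10 tubulin isotypes on a log axis, alpha on the left and beta on the right, with a point for each library and a black line at the mean over replicates A and B. *Tuba1a* and *Tubb5* lie near 1000 FPKM in most libraries, *Tuba4a* and *Tuba8* lie far below the rest, and the points of *Tubb6* are spread most among the beta isotypes.

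Before the single isotypes are described, the libraries need a comparison. The total number of reads per library is not used here, and relative depth was taken as mean coverage divided by FPKM. This was 22.7 to 24.4 in A1, A2 and B1 and 6.83 in B2, so single values of B2 rest on fewer reads. Of the 10 neural progenitor markers all averaged 1 FPKM or more, as did 10 of 12 neuron markers, and none of 4 microglia or 4 endothelial markers did. All 12 mesenchymal and meningeal markers, among them *Col1a1*, *Col3a1* and *Dcn*, also reached 1 FPKM, and their summed level was 733 and 720 FPKM in A1 and A2, 2752 in B1 and 3583 in B2. In RNA from whole cultures, fewer cells of a type and less RNA per cell cannot be told apart. B1 and B2 were less alike than A1 and A2. Over 10481 genes, the median absolute difference in log2(FPKM + 1) was 0.11 between A1 and A2, 0.22 between B1 and B2, and 0.24 to 0.31 between a library of A and one of B. Among the mesenchymal markers, *Ptgds* was at 8.18 FPKM in B1 and 292 in B2, and *Foxc1* at 29.4 and 115 FPKM. The other 10 were at 0.905 to 1.67 times in B2 relative to B1, 2 of them lower in B2. The grouping follows the sample labels. The headings of the study's gene list leave room for a different assignment of libraries to replicates, under which every comparison and SD of A and B would differ. With 2 replicates of 1 condition no test between groups can be made and no p-value is given.

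*Tuba1a* measured 1018 and 1118 FPKM in A1 and A2, and 1071 and 1450 FPKM in B1 and B2. B1 lay between the libraries of replicate A, so the replicates overlapped, and the B to A ratio of 1.18 came from B2. The genes with the nearest levels over the 4 libraries, by Euclidean distance in log2(FPKM + 1), were *Pfn1* (profilin) at 0.27, *Gapdh* at 0.29 and the ribosomal protein gene *Rps3* at 0.32. For *Tubb5* they were *Gapdh* at 0.43, *Tuba1a* at 0.49 and *Pfn1* at 0.51. The likeness rests on 4 libraries of 2 cultures and is mostly one of level.

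*Tuba1b* gave 341 and 374 FPKM in replicate A against 496 and 625 FPKM in replicate B, with no overlap and a B to A ratio of 1.57. *Tuba1c* gave 107 and 113 FPKM in replicate A against 159 and 199 FPKM in replicate B, also without overlap, at a ratio of 1.63. The 2 genes kept pace with each other: *Tuba1b* was 3.13 to 3.31 times *Tuba1c* in every library. *Tuba1a* did not follow them, and its ratio to *Tuba1b* was 2.99 in both libraries of A and 2.16 and 2.32 in B1 and B2.

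Reads of the *Tuba1* genes are hard to place, because their coding sequences are nearly identical. The RefSeq table names 14 pseudogenes of *Tuba1b* and 5 of *Tuba1a*, and the tables list *Tuba1c* at 2 loci of equal span, 7604 bases, on chromosomes 7 and 2 (199196137 to 199203740, plus strand). The chromosome 2 locus had 0.917 to 0.919 times the FPKM of the chromosome 7 locus in A1, A2 and B1 and 0.818 times in B2. The values of *Tuba1c* given here are the sum of both loci, and the part of shared reads in the levels of these genes was not tested. With *Tuba1c* taken from chromosome 7 only, the level of *Tuba1c* was 76.6 FPKM, below *Tubb3* and not above it, *Tuba1b* was 5.71 to 6.34 times *Tuba1c*, and the share of *Tuba1a* in the alpha total was 68.7%, against 66.1%.

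The minor alpha isotypes were low in every library. *Tuba4a* was at 2.78 and 2.84 FPKM in replicate A, at 4.53 in B1 and at 2.52 in B2, so the libraries of B lay on either side of those of A. *Tuba8* was at 0.101 and 0.158 FPKM in A1 and A2 and at 0.296 and 0.544 FPKM in B1 and B2, and it was the only member with a mean under 1 FPKM, which kept it out of the counts below. The other alpha genes of the tables, *Tuba3a*, *Tuba3b* and *Tubal3*, did not exceed 0.107 FPKM in any library.

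Among the beta isotypes, *Tubb5* had 809 and 905 FPKM in A1 and A2, 966 FPKM in B1 and 1564 FPKM in B2. Both libraries of B were above those of A, by little in B1 (1.13 times the mean of A) and by more in B2. *Tubb2b* went the other way, with 490.1 and 534 FPKM in A1 and A2 but 401 and 429 FPKM in B1 and B2, and *Tubb2a* likewise, with 172 and 189 FPKM against 136 and 153 FPKM. Neither gene overlapped between the replicates, and A was 1.23 times B for *Tubb2b* and 1.25 times B for *Tubb2a*. These neighbours on chromosome 17 stayed at a ratio of 2.81 to 2.96 in all 4 libraries. How often other pairs of genes stay as close was not tested. The part of shared reads in the levels of *Tubb2b* and *Tubb2a* was not tested either.

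*Tubb3*, the neuronal isotype, had the lowest SD relative to its mean among the 10 isotypes. It was at 117 and 134 FPKM in A1 and A2 and at 105 and 118 FPKM in B1 and B2, so that the replicates overlapped. Of the 10 neuron markers that averaged 1 FPKM or more, 6 were lower in both libraries of B than in both of A, against 32.0% of all genes, and 1 was higher, against 28.1%. The RNA-binding protein genes of neurons *Elavl4* and *Elavl3* went opposite ways. *Elavl4* was the 1 neuron marker of 10 counted as lower in B, against 1.57% of all genes. It was at 36.1 and 40.6 FPKM in A and 18.1 and 17.5 FPKM in B. *Elavl3* was at 11.0 and 11.1 FPKM in A and 16.8 and 16.1 FPKM in B. *Tubb3* exceeded the microtubule protein gene *Dcx* (7.64 to 12.7 FPKM) and *Map2* (3.28 to 7.03 FPKM) in every library.

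*Tubb6* had the largest difference in log2(FPKM + 1) between the replicates, 1.29, although the plain B to A ratio was larger for the barely detected *Tuba8* (3.25) than for *Tubb6* (2.67). It was at 32.3 and 35.6 FPKM in A1 and A2, at 57.5 FPKM in B1 and at 124 FPKM in B2. All libraries of B were above those of A, and B2 was 2.15 times B1. In A1 and A2 *Tubb3* was 3.61 and 3.77 times *Tubb6*, in B1 it was 1.83 times, and in B2 the order was reversed at 0.952 times. Its position among all genes went from rank 3287 in A1 to 839 in B2.

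Genes were counted as differing between replicates where the mean was at least 1 FPKM, the mean log2(FPKM + 1) over technical libraries differed by at least 1, and the libraries of A and B did not overlap. That level was reached by 10481 genes, of which 4.58% were counted as higher in B, 1.57% as higher in A and 6.15% in either direction. Of the 9 isotypes at that level, 1 was counted, *Tubb6*, at a log2 difference of 1.29 (B minus A), and 0 were counted as higher in A. Without B2, *Tubb6* was at a log2 difference of 0.74 and 0 isotypes were counted, so the call rests on B2. By absence of overlap alone, 4 isotypes were higher in B (*Tuba1b*, *Tuba1c*, *Tubb5* and *Tubb6*), against 28.1% of all genes, and 2 were higher in A (*Tubb2a* and *Tubb2b*), against 32.0% of all genes. Together these 6 of 9 isotypes stand beside 60.1% of all genes. The median log2 difference was 0.22 over the 9 isotypes and -0.03 over all genes.

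**Figure D2:**
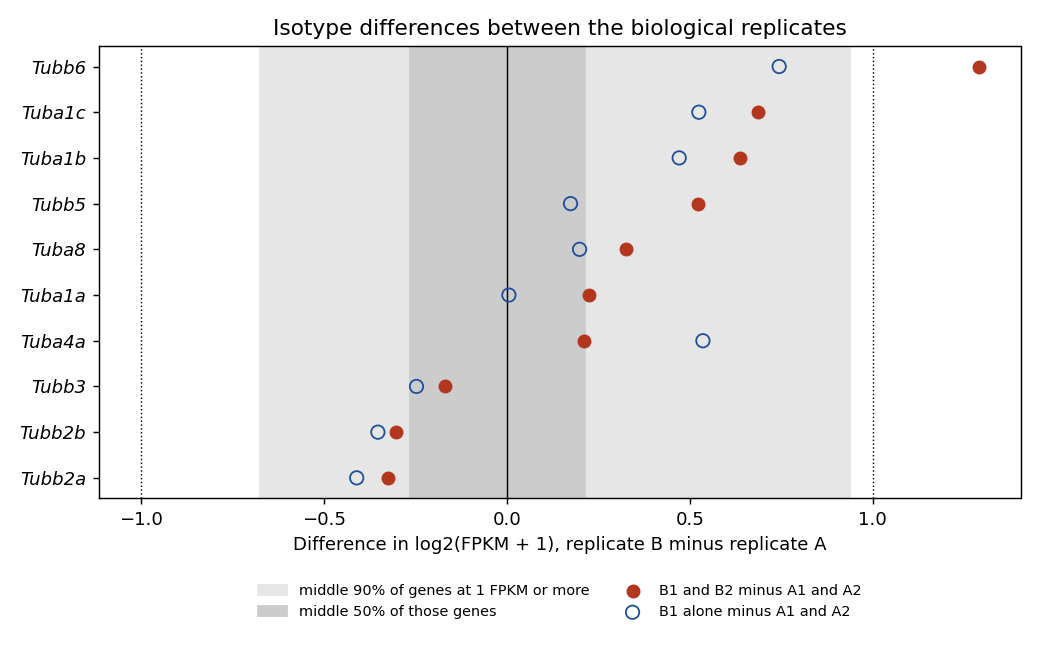
Difference in log2(FPKM + 1) between replicates, B minus A, for the 10 isotypes (filled points), with B1 alone as replicate B (open circles). Grey bands hold the middle 50% and 90% of the 10481 genes at that level, and dotted lines mark a difference of 1; *Tubb6* alone lies past that line and falls back to 0.74 with B1 alone.

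The make-up of each family was then expressed as percent of its FPKM total, which removes the depth and the scaling of a library. *Tuba1a* made up 69.3% and 69.5% of the alpha total in A1 and A2, and 61.9% and 63.7% in B1 and B2, a mean of 66.1% ± 4.68 (SD, n = 2). *Tuba1b* took 23.2% and 23.3% of it in A1 and A2 but 28.6% and 27.4% in B1 and B2, on average 25.6% ± 3.40 (SD, n = 2). *Tuba1c* held 7.04% to 7.26% in A and 8.73% to 9.16% in B. The *Tuba1* genes thus accounted for 99.7% to 99.9% of the alpha total, *Tuba4a* for 0.111% to 0.262% and *Tuba8* for at most 0.0239%. The replicates did not overlap in the share of any alpha isotype except *Tuba4a*, where 60.1% of all genes were apart in their level. The isotypes without overlap include *Tuba8*, which was under 1 FPKM in every library.

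Shares of the beta total differed more. *Tubb5* made up 49.9% and 50.3% in replicate A, 58.01% in B1 and 65.5% in B2, a mean of 56.0% ± 8.23 (SD, n = 2). *Tubb2b* made up 30.2% and 29.7% in A, 24.1% in B1 and 18.0% in B2, a mean of 25.5% ± 6.34 (SD, n = 2). The share of *Tubb2a* was 10.5% to 10.6% in A and 6.39% to 8.14% in B, and that of *Tubb3* 7.20% to 7.46% in A and 4.93% to 6.32% in B. *Tubb6* made up 1.99% and 1.98% in A, 3.45% in B1 and 5.17% in B2. All beta isotypes were thus apart between the replicates in their share, where 60.1% of all genes were apart in their level, *Tubb5* and *Tubb6* with larger shares in B and *Tubb2a*, *Tubb2b* and *Tubb3* with smaller ones, and since shares sum to the whole these directions are not independent.

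**Figure D3:**
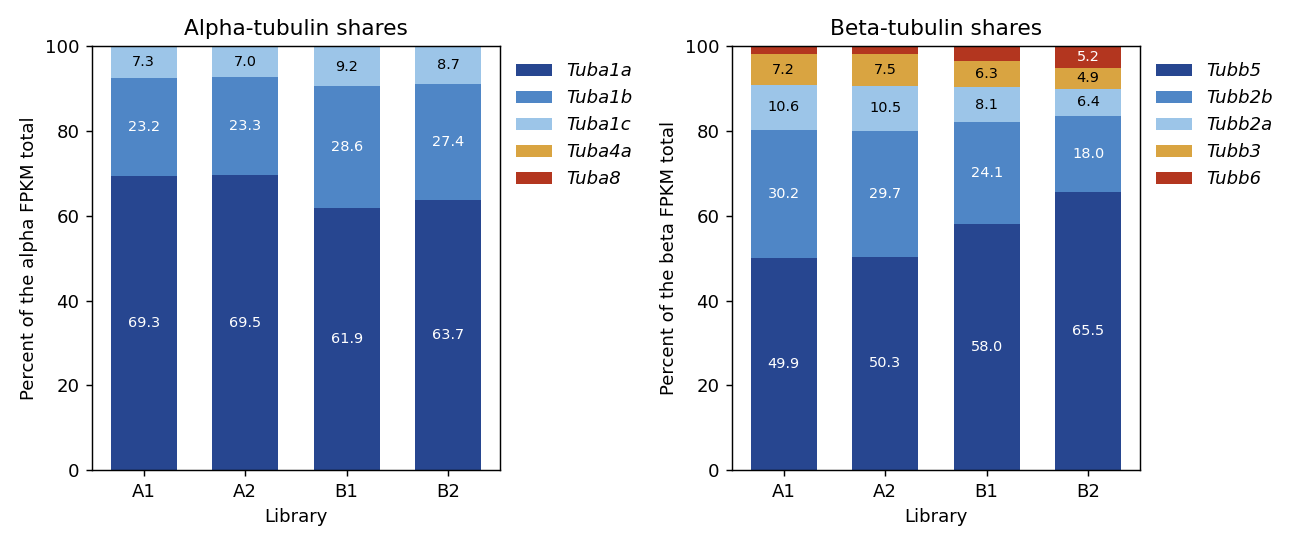
Percent of the alpha (left) and beta (right) FPKM total taken by each isotype in each library, as stacked bars with shares above 4% printed. A1 and A2 are nearly alike, *Tubb5* goes from 49.9% in A1 to 65.5% in B2, and *Tuba1a* is lower in B1 and B2 than in A1 and A2.

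Alpha and beta totals of the listed isotypes were nearly equal, as were the levels of their leading isotypes. The alpha total was 1771 ± 329 FPKM and the beta total 1868 ± 224 FPKM (SD, n = 2). Their ratio was 0.906 and 0.894 in A1 and A2, 1.04 in B1 and 0.954 in B2, a mean of 0.948 ± 0.068 (SD, n = 2), so that the difference between the totals was within the spread between replicates. *Tubb4b*, a beta isotype outside the list that is also used in cilia, was at 82.8 and 88.0 FPKM in A and 103 and 157 FPKM in B. *Tubb4a*, an isotype of mature neurons and oligodendrocytes, had a mean of 10.4 FPKM in A and was at 4.76 FPKM in B1 and 11.5 FPKM in B2. With these 2 genes counted in, *Tubb5* made up 52.7% of the beta RNA. With every alpha and beta gene of the tables, the alpha to beta ratio was 0.893, farther from equality than the 0.948 of the list. The near equality of the totals thus holds for the listed isotypes only.

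*Tubb5*, *Tubb6* and the mesenchymal markers were all higher in both libraries of B, as were *Tuba1b*, *Tuba1c*, *Tubb4b* and 28.1% of all genes. Relative to the mean of A, *Tubb6* was at 1.69 in B1 and 3.64 in B2, *Tubb5* at 1.13 and 1.83, and the summed mesenchymal markers at 3.79 and 4.93. Of the 12 mesenchymal markers 11 were counted as higher in B (10 without B2), against 4.58% of all genes, and none was at 0 in A. *Tubb3* was at 0.840 and 0.938 of the mean of A in B1 and B2, and the summed neuron markers at 0.780 and 1.02. The neuron sum was led by *Gap43*, at 61.3 and 66.0 FPKM in A1 and A2 and 53.0 and 85.6 FPKM in B1 and B2. The progenitor markers were at 0.458 and 0.492, a sum led by *Fabp7*. Without *Fabp7* they were at 0.815 and 1.22, a sum led by *Vim*, and the 8 markers without both genes were at 0.681 and 0.672. *Fabp7* and *Hes5*, 2 of 10 progenitor markers, were counted as lower in B, against 1.57% of all genes. *Sox2*, *Notch1* and *Hes1* were also lower in both libraries of B. Thus 5 of 10 progenitor markers were lower in both, against 32.0% of all genes, and 0 were higher in both, against 28.1%. The mean log2 difference was nevertheless positive for 4 of them, *Nes*, *Slc1a3*, *Vim* and *Prom1*. *Nes* was at 35.7 and 36.9 FPKM in A and 28.2 and 55.4 FPKM in B. *Sox2* was at 558 and 592 FPKM in A and 406 and 356 FPKM in B, and *Hes5* at 397 and 399.8 FPKM in A and 197 and 162 FPKM in B. The median log2 difference was -0.36 over the progenitor markers and -0.32 without *Fabp7*. Oligodendrocyte lineage markers summed to 260 and 285 FPKM in A and 695 and 354 FPKM in B, a sum led by *Olig1* (523 and 237 FPKM in B1 and B2). Astrocyte markers summed to 625 and 586 FPKM in A and 577 and 1028 FPKM in B, a sum led by *Gfap* (419 and 904 FPKM in B1 and B2), while *Aqp4* and *Aldh1l1* were lower in B2 than in B1. The marker lists were chosen with earlier results of these data known, so their counts are not independent tests. The part of cell mixture in the isotype levels was not tested.

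**Figure D4:**
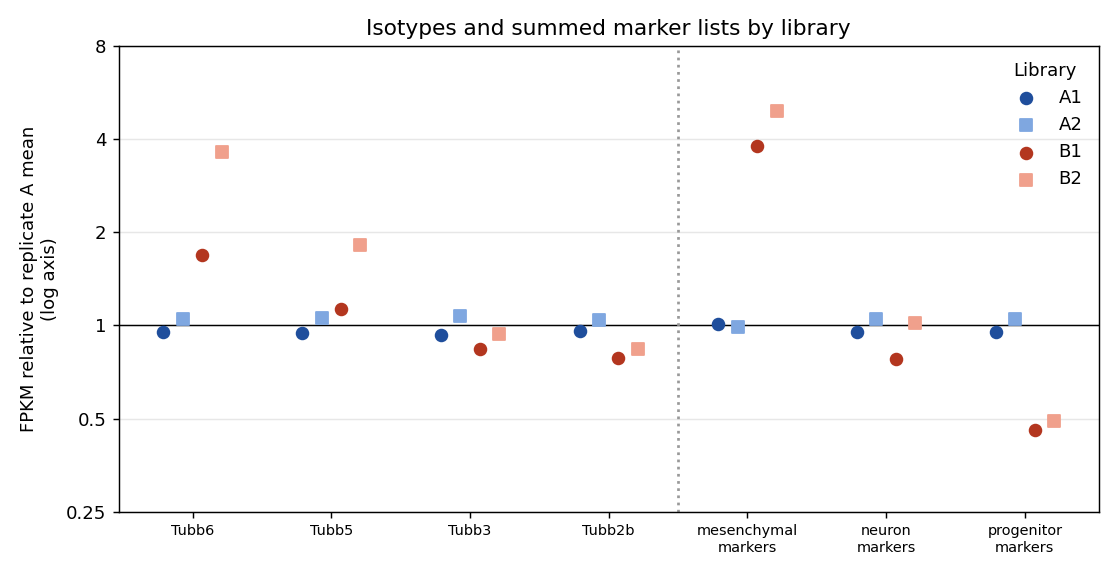
FPKM of 4 beta isotypes and summed FPKM of 3 marker lists in each library, divided by the mean of A1 and A2, on a log axis. *Tubb6* at 3.64 and the mesenchymal markers at 4.93 are highest in B2, *Tubb3* and *Tubb2b* stay within 0.782 and 1.07, and the progenitor markers, a sum led by *Fabp7*, are at 0.458 in B1 and 0.492 in B2 (0.681 and 0.672 without *Fabp7* and *Vim*, not drawn).

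Technical libraries of replicate A were close to each other for the isotypes, with A2 at 1.02 to 1.15 times A1 in the 9 isotypes that passed this level. In replicate B the same 9 isotypes were at 0.558 to 2.15 times, with 8 higher in B2 than in B1. The median log2(FPKM + 1) difference of B2 minus B1 was 0.32 over these isotypes and -0.01 over all genes tested. Of the 9 isotypes 2 lay outside the middle 90% of all genes: *Tubb6*, at 1.09, was above the 95th percentile, 0.73, and *Tuba4a*, at -0.65, was below the 5th, -0.57.

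The genes that act on tubulin were then examined. Tubulin heterodimers are made by prefoldin, the chaperonin and the tubulin cofactors, and 11 of 13 listed folding genes were in the tables, all averaging 1 FPKM or more. The highest were *Tbca* (306 ± 15.4 FPKM), *Pfdn5* (239 ± 5.12 FPKM) and *Pfdn6* (223 ± 6.08 FPKM; SD, n = 2), and 0 were counted as differing between the replicates, against 6.15% of all genes. Their median log2 difference was -0.04, near the -0.03 of all genes. *Ttc5*, which recognises nascent tubulin and starts the decay of its mRNA when free tubulin is in excess, was at 38.0 to 44.0 FPKM in all libraries.

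The gamma-tubulin ring complex, which nucleates microtubules, was represented by 8 of 10 listed genes. *Tubg1* was at 57.4 and 51.2 FPKM in A and 86.6 and 62.1 FPKM in B, *Mzt2b* had a mean of 57.2 FPKM and *Tubgcp2* one of 17.9 FPKM, and 0 of the 8 were counted as differing, against 6.15% of all genes. By absence of overlap alone 2 of the 8 were higher in B, against 28.1% of all genes, and 2 in A, against 32.0%. *Tubd1* and *Tube1*, the delta- and epsilon-tubulins of centrioles, had means of 1.37 and 10.2 FPKM, and 0 were counted. Enzymes that modify tubulin were represented by 14 of 23 listed genes, 13 of them averaging 1 FPKM or more. *Sirt2*, a tubulin deacetylase, was highest at 134 ± 12.2 FPKM, followed by *Tpgs1*, a polyglutamylase subunit, at 111 ± 10.8 FPKM and *Svbp*, the partner of the detyrosinating vasohibins, at 87.1 ± 2.10 FPKM (SD, n = 2). Of the 13 genes 0 were counted as differing, against 6.15% of all genes, 2 were higher in both libraries of B, against 28.1% of all genes, and 6 were lower in both, against 32.0%, with a median log2 difference of -0.14.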

How the data were processed

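PolyA RNA of rat cortical neural progenitors was measured in 2 biological replicates with 2 technical libraries each, grouped by the sample labels, although the headings of the study's gene list leave room for a different assignment. Per the methods, alignment was to rn6 with STAR, and the authors deposited FPKM, TPM (summing to 1000000 per library) and coverage (mean read depth, not scaled for library depth) per reference gene in the StringTie layout. The methods name Rsubread and DESeq2 for FPKM and the submitters' processing notes name StringTie, so which tool gave these values is not settled, and versions are not given in the sources used here.

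Rows that share a gene name were added up. Technical libraries were averaged within a replicate, and mean and SD are over 2 replicates. The pseudocount on the log2 scale was 1, so differences of low genes are understated, and genes under a mean of 1 FPKM were not counted. Depth was compared as coverage per FPKM, and without read counts no counting interval was given. Promoter sequences came from RefSeq (GRCr8) and were matched by symbol for 10 of 10 isotypes. The named genes were the 10 isotypes, the 3 highest genes of each list of microtubule-related genes with any counted as differing, and the nearest 3 genes to the leading isotypes. Cell type markers are examples, and *Elavl3*, *Elavl4*, *Dcx*, *Map2*, *Tuba3b* and *Tubal3* were named after their values were seen. The members and lists were chosen with earlier results of these data known. Alternatives were other thresholds, TPM, scaling, all tubulin genes and each replicate or library left out. Python 3.11.15, pandas 2.3.3, numpy 2.4.6 and matplotlib 3.10.9 were used.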

Additional observations from a re-analysis of the deposited data

Results flagged for a closer look

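Of 24 values examined for a library far from the other 3, 2 stood apart, and chance gives about 1 in 20 for independent samples, which these technical pairs are not. *Tuba4a* was at 4.53 FPKM in B1 and at 2.52 to 2.84 FPKM elsewhere. The FPKM of *Tuba1c* on chromosome 2 relative to chromosome 7 was 0.818 in B2 and 0.917 to 0.919 elsewhere, and B2 is the library of lowest depth.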

How the results depend on the processing

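Of 147 alternatives computed for 27 results, 50 leave out a replicate, or B1 or B2 from a log2 difference, and by construction cannot exceed the spread they are held against. In 6 more, of shares and the alpha to beta ratio, the scaling of a library cancels. Neither kind tests stability. Of the other 91, 84 left the value inside 1 SD of the replicates or technical libraries, or kept a count within 1.5 times. In TPM the alpha total was 2966 and the beta total 3131, which is the change of unit. The count of isotypes differing between A and B was 3 at a log2 difference of at least 0.58 (*Tuba1b*, *Tuba1c* and *Tubb6*), where 16.5% of all genes were counted, and ranged from 0 (without B2, of lower depth, with 5.5% of all genes) to 1 with a library left out, against 1 and 6.15%. Without B2, the log2 difference of *Tubb6* was 0.74 against 1.29. With the chromosome 7 locus only, *Tuba1c* was at 76.6 FPKM against 144. With a pseudocount of 0.1, the log2 difference of *Tuba8* was 1.15 against 0.33. Of 60 recomputed differences of single isotypes, 1 changed sign: *Tuba4a*, -0.11 without B1. The alternatives with *Tuba1c* on chromosome 7 only, with the log2 of the averaged FPKM, and of the markers without B2 were chosen after seeing the data. No paired analysis was possible because the samples form 1 condition. The depth of B2 limits its single values.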
